A study of Mus musculus with 12 samples.

Results

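The libraries described here were the T cell receptor (TCR) beta chain libraries of the spleens of 6 mice, 3 that had received WT and 3 that had received KO CD4+ T cells. They were chosen by their sample titles (spleens of WT replicates 1, 3 and 4 and of KO replicates 1, 2 and 3) and are 6 of the 12 libraries of the series, the other 6 being from mesenteric lymph nodes (mLN). WT donors were C57BL/6 Prkaa1 fl/fl mice, and KO donors were Prkaa1 fl/fl littermates that carried CD4-Cre, so both groups shared the floxed allele and differed in Cre. Prkaa1 encodes AMPKα1, the catalytic subunit of the energy sensor AMPK. CD4-Cre is active from the CD4+CD8+ stage of thymocyte development, in CD8+ as well as CD4+ T cells, although only naive CD4+CD25-CD44-CD62L+ cells were transferred. Rag2-/- recipients, which make no T or B cells of their own, were injected intraperitoneally, and the donor cells were taken from their spleens 6 weeks later. Mice were young adults, used from 6 weeks of age per the methods of the study. The source gives 1 experiment with 3 mice per group. Whether donors were pooled and which recipients shared a donor was not given in the sources used here.

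TCR beta chain genes are assembled in the thymus from V, D and J segments. The junction of the 3 segments, with bases trimmed from the segment ends and nontemplated bases added between them, encodes the complementarity-determining region 3 (CDR3), the part of the chain that lies over the antigenic peptide. TRBD1 precedes the TRBJ1 cluster and TRBD2 precedes the TRBJ2 cluster, so TRBD1 can join either cluster, whereas TRBD2 is followed only by TRBJ2. Each nucleotide CDR3 marks a clone, and in a lymphopenic host a few transferred clones can come to make up much of the repertoire. The libraries hold TCR transcripts only, so neither the CD4+ label nor the loss of Prkaa1 could be checked in them, and more cells of a clone cannot be told apart from more TCR transcript per cell.

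The most abundant CDR3 of each spleen is shown first, since these 6 clones carried between 2.37% and 16.7% of the transcripts of their libraries. Capitals mark the bases between the part that MiXCR aligned to V and the part it aligned to J, that is, D and added bases. An aligned part, in lower case, can hold differences from the germline.
WT replicate 1, TRBV13-3 with TRBJ2-7: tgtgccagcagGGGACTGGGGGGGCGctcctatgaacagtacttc
WT replicate 3, TRBV13-2 with TRBJ2-4: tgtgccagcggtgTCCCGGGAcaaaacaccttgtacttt
WT replicate 4, TRBV13-1 with TRBJ1-1: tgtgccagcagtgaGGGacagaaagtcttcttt
KO replicate 1, TRBV15 with TRBJ2-7: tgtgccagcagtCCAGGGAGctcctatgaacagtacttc
KO replicate 2, TRBV1 with TRBJ1-1: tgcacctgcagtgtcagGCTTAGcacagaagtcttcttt
KO replicate 3, TRBV26 with TRBJ2-1: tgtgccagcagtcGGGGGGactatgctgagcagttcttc
No sequence of these 6 was the leading one in more than 1 spleen. Each CDR3 was in frame and without a stop codon. They used 6 different V segments and 4 different J segments, and the gaps between the aligned parts ran from 3 bases in WT replicate 4 to 15 bases in WT replicate 1. The J part of WT replicate 4 and the V part of KO replicate 2 each held 1 difference from the germline, so the gap of 3 bases depends on how the aligner placed that J segment.

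The spleens held 11271 to 493287 unique molecular identifiers (UMIs, 1 per captured cDNA molecule) and 1047 to 31378 clonotypes, a clonotype being a distinct nucleotide CDR3. Values for whole repertoires are therefore means over 50 random draws of 11271 UMIs, the smallest spleen total, and draws of 1 spleen varied by an SD of up to 1.46 points in the share of a clone-size class. In WT replicate 1 and KO replicate 1, 3.20% and 5.85% of the clonotypes of 1 UMI ended in bases unusual for their J segment, against 33.6% to 38.3% in the other 4 spleens, and these 2 also had the fewest clonotypes. Differences are given within these 2 kinds of library where they bear on a result, as values without a test, since the kind with few unusual ends holds 1 mouse per genotype. A further 596 clonotypes over the 6 spleens had a share at least 100-fold larger in a library of another mouse, from 0 in WT replicate 1 to 252 in WT replicate 4, and took at most 0.111% of the UMIs of a spleen. For 511 of them (85.7%) that mouse had the same genotype. Clonotypes without a unique best V segment held at most 0.00887% of UMIs.

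First, the repertoire was divided by clone size. Clonotypes above 1% of UMIs took 39.96%, 19.0% and 17.5% of the UMIs in WT replicates 1, 3 and 4, and 45.3%, 18% and 21.3% in KO replicates 1, 2 and 3. The groups overlapped, and in both genotypes replicate 1 stood far above the others. The means were 25.5 ± 12.6% in WT and 28.2 ± 14.9% in KO (SD, n = 3 mice per group). The 2.74 points between them did not exceed the variation among mice (p = 0.6 by a two-sided exact permutation test). The smallest p that 3 against 3 mice allow is 0.1, so no single measure could pass a threshold of 0.05 in this test.

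Clonotypes between 0.1% and 1%, the class that held the most UMIs in 4 of the 6 spleens, took 44.9 ± 4.58% in WT and 44.97 ± 7.87% in KO (exact permutation p = 1). Clonotypes below 0.1% took 29.6 ± 7.98% and 26.8 ± 7.41% (exact permutation p = 0.5). The number of clonotypes above 1% was 13, 10 and 6.90 in WT, and 11.6, 12.3 and 12.3 in KO, with a difference of 2.09 (SE 1.77, exact permutation p = 0.4). Its sign turned between the kinds of library, at −1.38 and 3.82, and the difference was 0.553 without WT replicate 4. Here WT spleens were spread widely, whereas the 3 KO spleens lay close together. It took 26, 84.9 and 80.5 of the largest clonotypes to reach 50% of the UMIs in WT, and 17.6, 73.6 and 70.9 in KO (difference −9.77, SE 26.3, exact permutation p = 0.5). Within the kinds of library this difference was −8.42 and −10.5. KO mice had the lower number in each kind. The spread over all 6 mice was largely that between the kinds, with 26 and 17.6 against 70.9 to 84.9. In the kind with many unusual ends the genotypes did not overlap, at 84.9 and 80.5 in WT against 73.6 and 70.9 in KO. These are too few mice to weigh, and the difference within kinds was not tested. The difference between the genotype means turned to 8.45 without KO replicate 1 and to 0.787 without WT replicate 3.

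**Figure D1:**
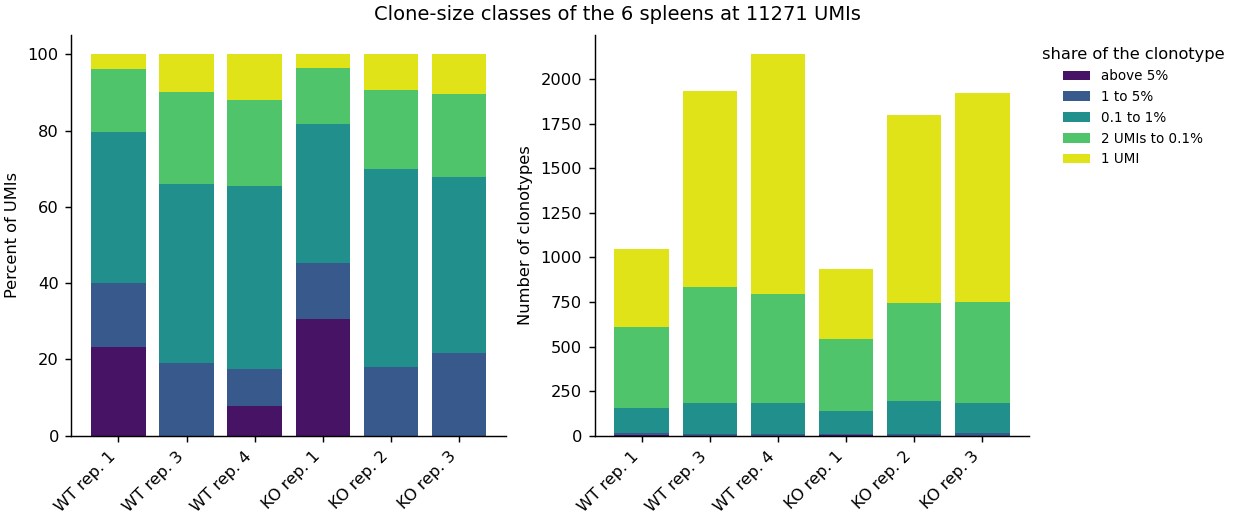
Share of UMIs (left, percent) and number of clonotypes (right) by clone-size class in each of the 6 spleens, as stacked bars, after drawing 11271 UMIs from each. WT replicate 1 and KO replicate 1 have 23.2% and 30.7% of UMIs in clonotypes above 5% and the fewest clonotypes of 1 UMI, 438 and 390, against 1049 to 1346 in the other spleens.

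Clones at the top of the size range differed in number between mice of the same genotype. Clonotypes above 5% were found in WT replicate 1 (2 clonotypes, 23.2% of UMIs), WT replicate 4 (1 clonotype, 7.69%) and KO replicate 1 (3 clonotypes, 30.7%), and in none of the other 3 spleens.

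The clonotypes ranked 2 and 3 in each spleen also varied in their V and J segments. In WT replicate 1 the first, a TRBV13-3 with TRBJ2-7 sequence at 16.7% of UMIs (Wilson 95% confidence interval 16.1 to 17.4), was followed by TRBV16 with TRBJ2-7 at 6.41% and TRBV1 with TRBJ2-1 at 3.12%. In WT replicate 3 the ranks were TRBV13-2 with TRBJ2-4 (4.33%), TRBV23 with TRBJ2-3 (2.91%) and TRBV1 with TRBJ1-1 (1.98%). In WT replicate 4 they were TRBV13-1 with TRBJ1-1 (7.68%), TRBV3 with TRBJ1-1 (3.20%) and TRBV17 with TRBJ2-4 (1.79%). TRBV1 was the only V segment that appeared in 2 of these 3 WT lists. Among KO mice, replicate 1 had TRBV15 with TRBJ2-7 (15.4%, interval 15.1 to 15.7), TRBV13-1 with TRBJ2-1 (8.85%) and TRBV5 with TRBJ2-3 (6.45%). Replicate 2 had TRBV1 with TRBJ1-1 (2.37%), TRBV2 with TRBJ2-3 (1.92%) and TRBV19 with TRBJ2-1 (1.796%). Replicate 3 had TRBV26 with TRBJ2-1 (3.85%), TRBV5 with TRBJ2-4 (3.26%) and TRBV2 with TRBJ2-7 (1.81%). In the KO lists TRBV5 appeared for replicates 1 and 3 and TRBV2 for replicates 2 and 3. All 18 were in frame, and all 18 were also found in the mLN of the same mouse, at 0.482% to 12.8% of its UMIs. In a library of any other mouse they reached at most 0.265%, a value of the second clonotype of WT replicate 4, and at most 0.0611% for the other 17. These intervals cover counting error only.

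V segments encode the first 2 antigen-contact loops of the chain and the start of the CDR3. The 10 V segments with a mean share of at least 5% over the 6 spleens together took 70.6% to 86.6% of UMIs. They were, from the highest mean, TRBV13-2, TRBV5, TRBV13-1, TRBV1, TRBV13-3, TRBV3, TRBV31, TRBV16, TRBV15 and TRBV19. The mean was higher in KO for 4 and lower for 6, and TRBV15 alone among them passed the test. TRBV13-2 was the steadiest of the 10, at 8.99% to 13.0% of UMIs, and TRBV15 and TRBV13-3 ranged most widely.

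Of the 25 V segments tested by edgeR's quasi-likelihood test, 2 were called at an adjusted p under 0.05 (8.00%). TRBV23 was the one lower in KO, with 1.06%, 3.24% and 1.74% of UMIs in WT replicates 1, 3 and 4 and 0.412%, 0.331% and 0.271% in KO replicates 1, 2 and 3. The groups did not overlap, and the log2 fold change was −2.58 (SE 0.757, edgeR adjusted p = 0.0234). TRBV15 was the one higher in KO, with 2.62%, 1.99% and 3.87% in WT and 18.8%, 5.13% and 2.24% in KO. Here the groups overlapped, and the high mean of KO rested on replicate 1 (log2 fold change 1.63, SE 0.549, edgeR adjusted p = 0.0478). TRBV13-3 had the next smallest p, with 22.9%, 4.81% and 5.21% in WT and 1.997%, 4.43% and 7.45% in KO (edgeR log2 fold change −1.24, adjusted p = 0.141). Its WT mean was set by the leading clonotype of replicate 1.

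**Figure D2:**
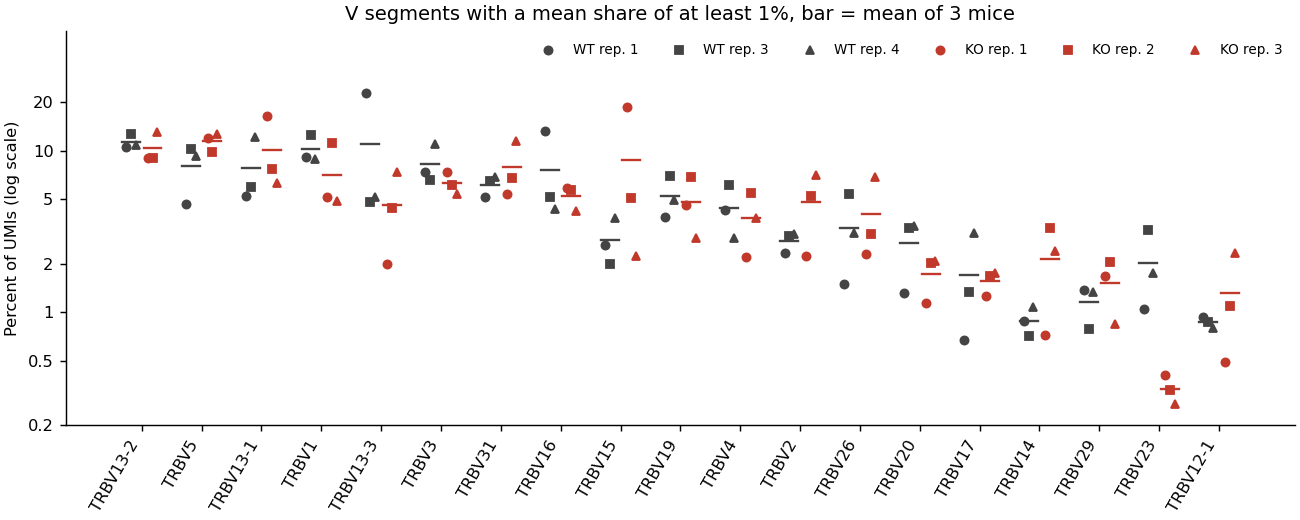
Percent of UMIs (log scale) for V segments with a mean share of at least 1%, in WT (grey) and KO (red) spleens, each symbol a mouse and each bar the mean of 3 mice. For TRBV23 all 3 KO mice (0.271% to 0.412%) lie below all 3 WT mice (1.06% to 3.24%), and for TRBV15 the mouse at 18.8% is KO replicate 1.

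The largest TRBV23 clonotype of each spleen is shown next, since TRBV23 was called with no overlap between the genotypes.
WT replicate 1, TRBV23 with TRBJ1-5: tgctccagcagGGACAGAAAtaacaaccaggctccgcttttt
WT replicate 3, TRBV23 with TRBJ2-3: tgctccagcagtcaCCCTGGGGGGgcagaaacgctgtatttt
WT replicate 4, TRBV23 with TRBJ2-3: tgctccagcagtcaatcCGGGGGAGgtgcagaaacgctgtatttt
KO replicate 1, TRBV23 with TRBJ1-2: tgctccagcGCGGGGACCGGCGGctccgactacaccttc
KO replicate 2, TRBV23 with TRBJ1-2: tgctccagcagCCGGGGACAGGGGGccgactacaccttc
KO replicate 3, TRBV23 with TRBJ2-3: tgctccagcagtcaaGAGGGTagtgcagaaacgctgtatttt
These clonotypes made up 0.745%, 2.91% and 0.734% of UMIs in WT, where they ranked 24, 2 and 16. In KO they made up 0.251%, 0.0892% and 0.109% and ranked 64, 211 and 173. All 6 were different, and 3 of them, those of WT replicates 3 and 4 and of KO replicate 3, used TRBJ2-3.

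Within clonotypes above 0.1%, TRBV23 took 1.08%, 4.48% and 2.29% of UMIs in WT and 0.307%, 0% and 0.162% in KO. Within clonotypes of at most 0.1% it took 0.955%, 0.945% and 0.760% in WT and 0.882%, 1.08% and 0.492% in KO. Among clonotypes of at most 0.1% the groups thus overlapped, and among those above they did not. The shares above 0.1% rested on only 2, 1 and 5 clonotypes in WT and 1, 0 and 1 in KO. With the largest TRBV23 clonotype left out of each spleen, 0.313%, 0.341% and 1.02% remained in WT and 0.161%, 0.242% and 0.162% in KO, still without overlap. Its share of clonotypes, each counted once, was 0.955%, 2.05% and 1.56% in WT and 0.794%, 0.519% and 0.528% in KO. An edgeR test on these numbers of clonotypes called TRBV23 as well (log2 fold change −1.52, adjusted p = 0.0170). That test used the full tables, without a common depth and without merging clonotypes that differ by 1 base. WT replicates 3 and 4 each had 491 TRBV23 clonotypes, of which 48 and 50 had 2 UMIs or more. Of these 491, 351 and 211 were TRBV23 with TRBJ2-3, a pair whose largest clonotype held 97.3% and 64.1% of its UMIs. The count of clonotypes is thus not independent of these large clones. How many of the small clonotypes were variants of them was not tested. Among all clonotypes of 2 UMIs or more, TRBV23 made up 0.985%, 0.958% and 1.01% in WT and 0.822%, 0.815% and 0.451% in KO. Among in-frame clonotypes of at least 2 UMIs its shares were 0.929%, 0.933% and 1.01% in WT and 0.749%, 0.861% and 0.502% in KO, which did not overlap and rested on 5 to 43 clonotypes per spleen. Among out-of-frame clonotypes of at least 2 UMIs, which encode no chain, TRBV23 was used by 1 of 70, 9 of 793 and 7 of 686 in WT and by 2 of 143, 3 of 452 and 1 of 456 in KO, and the groups overlapped. TRBV23 lost its call when any of 4 mice was left out (WT replicate 3, WT replicate 4, KO replicate 2 or KO replicate 3), with edgeR adjusted p from 0.0676 to 0.230 and log2 fold changes from −2.68 to −2.06.

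TRBV15 in KO replicate 1 was for the most part the single clonotype printed above, which held 82.0% of the TRBV15 UMIs of that spleen. Without the largest TRBV15 clonotype of each spleen, TRBV15 took 1.61%, 1.59% and 3.13% in WT and 3.998%, 3.76% and 1.58% in KO, with overlap. When clonotypes were counted once it took 3.15%, 2.91% and 4.03% in WT and 3.80%, 4.80% and 3.24% in KO. An edgeR test on numbers of clonotypes gave a log2 fold change of 0.22 (adjusted p = 0.662). Leaving out KO replicate 1 reduced the fold change from 1.63 to 0.38 on the log2 scale (edgeR adjusted p = 0.727), and the call was kept only when KO replicate 3 was the mouse left out. The adjusted p was 0.0739 without WT replicate 1, 0.312 without WT replicate 3, 0.0708 without WT replicate 4 and 0.0859 without KO replicate 2.

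J segments encode the end of the CDR3 and the last strand of the variable domain. The 8 J segments with a mean share of at least 5% were TRBJ2-7, TRBJ1-1, TRBJ2-1, TRBJ2-5, TRBJ2-4, TRBJ2-3, TRBJ1-3 and TRBJ1-4, and none of them passed the test (smallest edgeR adjusted p = 0.612, TRBJ2-3). TRBJ2-7 was the most used, at 14% to 36.3% of UMIs. The TRBJ2 cluster as a whole took 77.7%, 66.6% and 56.8% of UMIs in WT and 73.5%, 66.6% and 68.1% in KO (exact permutation p = 0.7).

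Of the 12 J segments tested, 1 was called (8.33%), TRBJ1-5. Its share was 2.05%, 2.18% and 2.71% of UMIs in WT replicates 1, 3 and 4 and 0.788%, 1.06% and 0.653% in KO replicates 1, 2 and 3. All 3 KO spleens lay below all 3 WT spleens (log2 fold change −1.47, SE 0.364, edgeR adjusted p = 0.00227). The difference was −1.26 percentage points between the 2 spleens with few unusual ends and −1.59 among the other 4. The call was kept when any single mouse was left out, with log2 fold changes from −1.69 to −1.32 and edgeR adjusted p from 0.00109 to 0.0441. The J segments with the next smallest p were TRBJ2-3, at 7.45 ± 2.61% in WT and 11.9 ± 2.37% in KO (edgeR adjusted p = 0.612), and TRBJ1-6, at 1.98 ± 0.492% and 2.68 ± 0.923% (edgeR adjusted p = 0.974).

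The largest TRBJ1-5 clonotypes of the 6 spleens are printed next, since TRBJ1-5 was called with no overlap between the genotypes. Leading clonotypes differed between mice in any case, so 1 sequence per mouse cannot show how the difference was spread over clones.
WT replicate 1, TRBV23 with TRBJ1-5: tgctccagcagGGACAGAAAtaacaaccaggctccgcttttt
WT replicate 3, TRBV13-2 with TRBJ1-5: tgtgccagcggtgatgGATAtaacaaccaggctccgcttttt
WT replicate 4, TRBV13-3 with TRBJ1-5: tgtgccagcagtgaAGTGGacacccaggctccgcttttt
KO replicate 1, TRBV31 with TRBJ1-5: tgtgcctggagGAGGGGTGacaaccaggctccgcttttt
KO replicate 2, TRBV14 with TRBJ1-5: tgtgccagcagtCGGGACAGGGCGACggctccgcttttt
KO replicate 3, TRBV13-1 with TRBJ1-5: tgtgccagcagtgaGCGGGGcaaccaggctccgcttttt
They had 6 different V segments, the J part of WT replicate 4 held 1 difference from the germline, and the sequence of WT replicate 1 was also the largest TRBV23 clonotype of that mouse. They made up 0.745%, 0.564% and 0.739% of UMIs in WT and 0.467%, 0.352% and 0.0810% in KO. On GRCm38 (GENCODE M21) TRBJ1-5 is the gene Trbj1-5 at chr6:41535084-41535133 on the plus strand, and its most frequent contribution to the CDR3, 22 bases, matched positions 41535084 to 41535105, the first bases of that gene:
TRBJ1-5 germline part of the CDR3: taacaaccaggctccgcttttt
Trbv23, at chr6:41216073-41216526, and Trbv15, at chr6:41141188-41141658, lie on the same strand of the same locus.

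TRBJ1-5 was lower in KO without overlap in each of the clone-size divisions examined. Without its largest clonotype it took 1.31%, 1.63% and 1.98% of UMIs in WT and 0.322%, 0.713% and 0.573% in KO. Within clonotypes above 0.1% it took 1.59%, 1.80% and 2.69% in WT and 0.571%, 0.725% and 0% in KO. These shares rested on only 5, 4 and 6 clonotypes in WT and 1, 2 and 0 in KO. Within clonotypes of at most 0.1% TRBJ1-5 took 3.82%, 2.90% and 2.73% in WT and 1.76%, 1.83% and 1.99% in KO. None of these 3 sets of values overlapped between the genotypes.

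When each clonotype was counted once, 3.92%, 3.58% and 3.66% of the clonotypes of WT spleens and 2.27%, 1.98% and 1.55% of those of KO spleens used TRBJ1-5 (log2 fold change −0.99, edgeR adjusted p = 2.2e-05 on numbers of clonotypes). These were 41, 858 and 1150 clonotypes in WT and 40, 206 and 249 in KO, in the full tables without a common depth. Only 22, 170 and 170 of them in WT and 29, 55 and 69 in KO had 2 UMIs or more. Among all clonotypes of 2 UMIs or more, TRBJ1-5 made up 3.61%, 3.39% and 3.42% in WT. In KO it made up 2.38%, 2.36% and 2.59%, so the genotypes lay closer together there. Among in-frame clonotypes of at least 2 UMIs the shares were 3.53%, 3.25% and 3.54% in WT and 2.43%, 2.26% and 2.69% in KO, again without overlap. Among out-of-frame clonotypes of at least 2 UMIs TRBJ1-5 was used by 3 of 70, 31 of 793 and 19 of 686 in WT (4.29%, 3.91% and 2.77%) and by 3 of 143, 13 of 452 and 9 of 456 in KO (2.10%, 2.88% and 1.97%). There the groups overlapped, by KO replicate 2 against WT replicate 4, and the counts were small.

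TRBJ1-5 was joined to 24 V segments over the 6 spleens. The mean share of the pair was lower in KO for 15 of them and higher for 9, and 4 pairs were lower without overlap and 0 higher without overlap. Over all 241 V-J pairs tested the groups did not overlap for 27 (11.2%). In the mLN of the same mice TRBJ1-5 took 1.36%, 1.87% and 3.33% of UMIs in WT and 0.905%, 1.12% and 0.523% in KO. The organs of a mouse share clones, so these values are not independent of those in spleen. The mLN library of KO replicate 3 held only 2488 UMIs, and its TRBJ1-5 value rested on 4 clonotypes. That library also entered the comparison of the organs. The edgeR test of whether the genotype effect differed between the organs called 0 of 25 V segments and 0 of 12 J segments (0% in both, with 2 and 0 at an unadjusted p under 0.05). Counting clonotypes called 2 V segments, TRBV12-2 and TRBV14, which are named after their values were seen. For TRBJ1-5 the ratio of the 2 folds was −0.19 on the log2 scale (SE 0.332, edgeR adjusted p = 0.918).

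**Figure D3:**
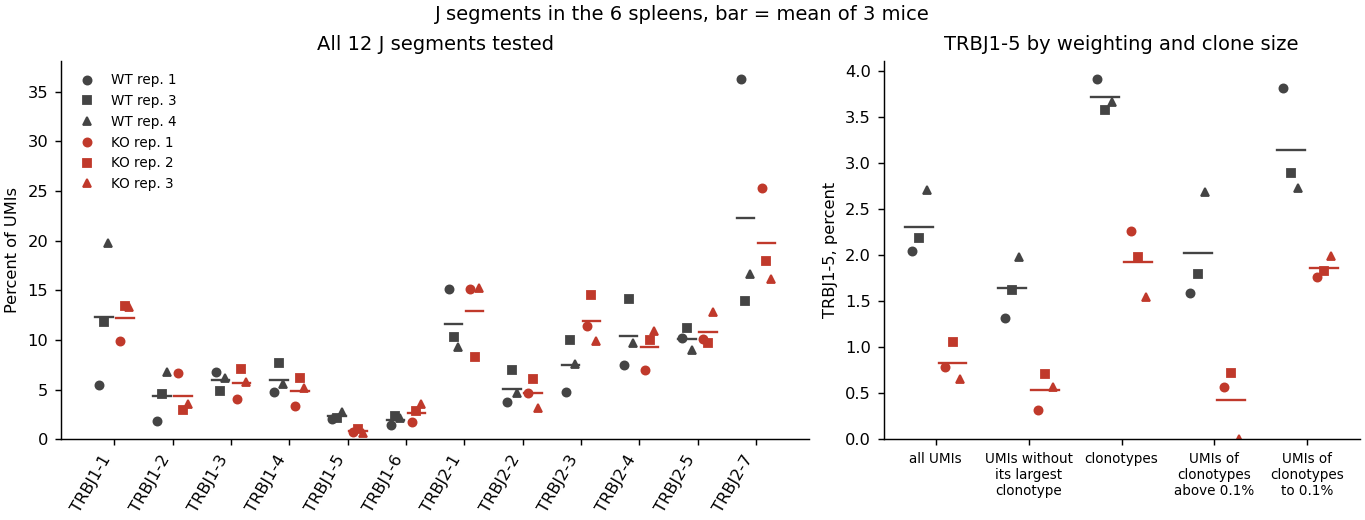
Left, percent of UMIs for the 12 J segments tested, and right, percent of TRBJ1-5 over all UMIs, without its largest clonotype, over clonotypes counted once, and within clonotypes above and up to 0.1% of UMIs. Grey symbols are WT and red symbols KO spleens, 1 symbol per mouse, and bars are means of 3 mice. In all 5 sets at right the KO mice lie below the WT mice, for example 1.55% to 2.27% against 3.58% to 3.92% of clonotypes.

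Next, the pairing of V and J segments was compared. Of 341 V-J pairs seen in any spleen, single spleens held 210 to 316. The effective number of pairs, which is the exponential of the Shannon entropy of their UMI shares, was 61.7, 115 and 107 in WT and 58.0, 115 and 105 in KO. Replicate 1 of either genotype had about as few effective pairs, and the genotype means of 94.6 ± 28.8 and 92.6 ± 30.4 differed by less than the spread between mice (exact permutation p = 0.7).

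The leading pair of a spleen was mostly 1 clone. In WT replicate 1, TRBV13-3 with TRBJ2-7 took 17.2% of UMIs and its largest clonotype held 97.1% of that. In KO replicate 1, TRBV15 with TRBJ2-7 took 15.7% and its largest clonotype held 97.7%. In the other spleens the leading pairs took 3.07% to 8.14%, and their largest clonotypes held 77.2% to 95.7% of the pair. The largest clonotypes of all pairs together carried 52.9% to 76.0% of a spleen's UMIs, so shares of pairs followed single clones. The share of the largest pair was 10.2 ± 6.31% in WT and 7.66 ± 7.08% in KO (exact permutation p = 0.5).

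Of 241 V-J pairs tested, edgeR called 0 (0%), with 22 at an unadjusted p under 0.05. On simulated counts this test recovered only 0.208% of 4-fold and 8.96% of 16-fold changes among pairs. A count of 0 therefore cannot show that pairs were unchanged. DESeq2 called 6 and the edgeR test on numbers of clonotypes called 3, TRBV23 with TRBJ2-3, TRBV5 with TRBJ1-5 and TRBV26 with TRBJ1-3, the first 2 lower and the last higher in KO. The last 2 were named after their values were seen. The pair with the smallest p, TRBV13-3 with TRBJ1-5, took 0.0177%, 0.105% and 0.811% of UMIs in WT and 0.00308%, 0.00449% and 0.00498% in KO (edgeR log2 fold change −6.19, adjusted p = 0.309), and DESeq2 called it (log2 fold change −6.01, adjusted p = 0.0009). Its values in 2 of the 3 KO spleens and in WT replicate 1 rested on 2, 7 and 2 UMIs, and 1 clonotype held 91.2% of it in WT replicate 4.

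TRBV17 with TRBJ2-3 took 0%, 0.00365% and 0.00802% in WT and 0.0123%, 0.0475% and 0.860% in KO, where a single clonotype of replicate 3 held 88.4% of the pair (log2 fold change 5.97, edgeR adjusted p = 0.309). The 0 of 11271 UMIs in WT replicate 1 allows a share of up to 0.0266%, which lies above the value of KO replicate 1. TRBV23 with TRBJ2-3 took 0%, 2.99% and 1.15% in WT and 0.00462%, 0% and 0.130% in KO (edgeR log2 fold change −4.93, adjusted p = 0.309), with overlap at WT replicate 1. It comprised 351 and 211 clonotypes in WT replicates 3 and 4, and 24 in KO replicate 3. A single clonotype held 97.3%, 64.1% and 83.7% of the pair in these spleens.

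**Figure D4:**
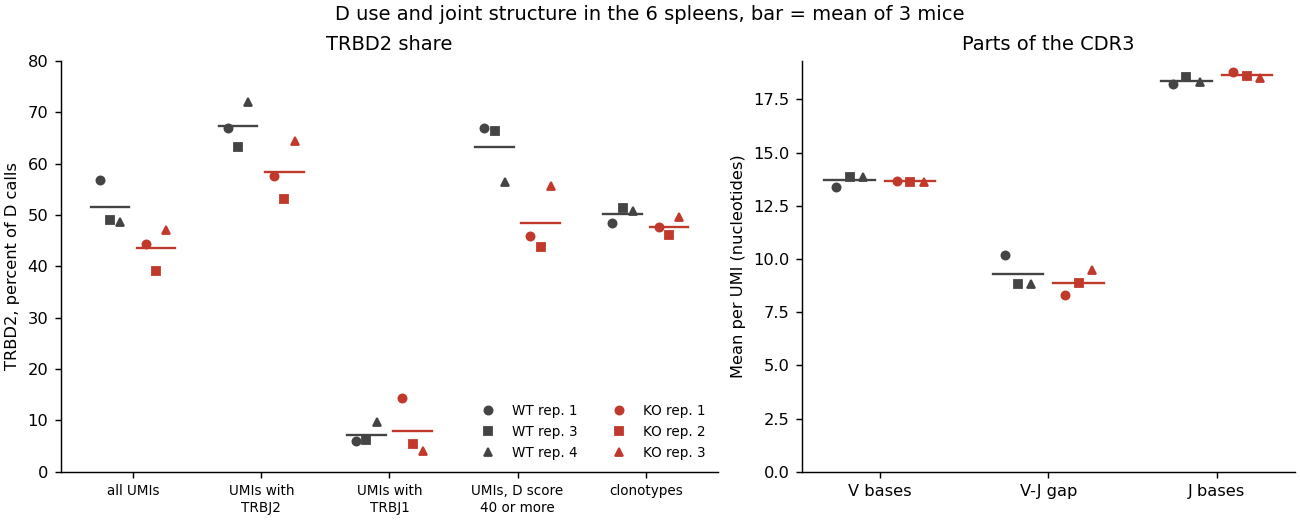
Left, TRBD2 as percent of D calls over all UMIs, UMIs with a TRBJ2 or a TRBJ1 segment, UMIs with a D alignment score of at least 40, and clonotypes counted once, and right, mean nucleotides per UMI that V, the V-J gap and J contribute to the CDR3. Grey symbols are WT and red symbols KO spleens, 1 symbol per mouse, and bars are means of 3 mice. TRBD2 shares do not overlap over all UMIs (48.7% to 56.9% against 39.1% to 47.0%), whereas all 3 parts of the CDR3 overlap.

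The joints themselves were then examined. TRBD2 made up 56.9%, 49.0% and 48.4% of the UMIs with a D call in WT and 44.5%, 39.1% and 47.1% in KO. All KO spleens lay below all WT spleens, with means of 51.4 ± 4.74% and 43.6 ± 4.04%. The difference of −7.84 percentage points (SE 3.60) had the smallest p that the design allows (two-sided exact permutation test, p = 0.1), and the p adjusted over the 17 measures compared was 0.85. It was −12.4 and −5.56 within the 2 kinds of library. The groups failed to overlap for this measure alone among the 17.

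D segments are short and trimmed on both sides, which limits the D calls. Only 50.5% to 69.3% of UMIs had a single best D segment in the full tables, and 4.03% to 14.4% of D calls among TRBJ1 clonotypes were TRBD2, an order that the arrangement of the locus does not allow by a direct joint. Further values bear on this result and were chosen after seeing the data. With D alignment scores of at least 40, TRBD2 made up 67.0%, 66.4% and 56.4% in WT and 45.9%, 43.9% and 55.6% in KO (difference −14.8, exact permutation p = 0.1). Among UMIs with a TRBJ2 segment the shares were 67.0%, 63.2% and 72.0% against 57.7%, 53.2% and 64.5%, with overlap (exact permutation p = 0.2). With the largest clonotype that had a D call left out of each spleen, the difference was −6.36 (exact permutation p = 0.2).

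Counted by clonotype, TRBD2 made up 48.4%, 51.4% and 50.8% in WT and 47.6%, 46.1% and 49.6% in KO of the full tables, a difference of −2.43 percentage points with overlap (exact permutation p = 0.2). In mLN the UMI-weighted shares were 48.6 ± 0.640% in WT and 44.9 ± 6.66% in KO (exact permutation p = 0.4). The direction was the same in each of these counts, and the size depended on how clonotypes were weighted. Among UMIs with a TRBJ1 segment the direction was the other way, with overlap. There TRBD2 made up 7.24 ± 2.11% in WT and 7.96 ± 5.63% in KO in spleen, and 5.84 ± 2.23% and 11.2 ± 14.1% in mLN.

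V segments kept 13.4, 13.9 and 13.8 bases in the CDR3 in WT and 13.7, 13.6 and 13.6 in KO (exact permutation p = 0.9). J segments kept 18.2, 18.6 and 18.3 bases in WT and 18.8, 18.6 and 18.5 in KO, a difference of 0.28 bases (SE 0.128, exact permutation p = 0.2). The gap between V and J, which holds D bases and added bases, was 10.2, 8.84 and 8.80 bases in WT and 8.30, 8.86 and 9.48 in KO (exact permutation p = 0.7). The long gap of WT replicate 1 was in part that of its leading clonotype, which had 15 gap bases. Without it the mean gap of that spleen was 9.24 bases in the full table. Alignments with a difference from the germline V or J held 4.68% to 19.0% of UMIs. Without them, a choice made after seeing the data, the mean gaps of the full tables were 10.4, 9.01 and 9.54 bases in WT and 8.46, 9.25 and 9.54 in KO, with overlap.

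Gaps of at most 2 bases were found in 2.95%, 5.81% and 4.89% of UMIs in WT and 2.38%, 6.11% and 2.86% in KO. Gaps of at least 15 bases were found in 22.5%, 7.16% and 11.1% in WT and 4.15%, 8.06% and 12.6% in KO. J segments untrimmed at their start made up 45%, 25.3% and 29.6% of UMIs in WT and 40.5%, 39.9% and 26.8% in KO. These ranges all overlapped between the genotypes.

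Nonproductive CDR3s, with a frameshift or a stop codon, took 6.24%, 5.46% and 5.42% of UMIs in WT and 3.11%, 6.36% and 5.24% in KO (exact permutation p = 0.5). Most were out of frame, with 2.99% to 6.18% of UMIs, against 0.0532% to 0.685% in frame with a stop codon. Transcripts of this kind can come from the nonfunctional allele of a T cell. The lowest value belonged to KO replicate 1, and the 2 WT spleens with many unusual ends lay between the 2 such KO spleens.

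CDR3 lengths peaked at 39 to 45 bases. At 39 bases the shares were 13.9%, 25.0% and 22.2% of UMIs in WT and 42.1%, 27.3% and 21.2% in KO. At 42 bases they were 20.4%, 32.7% and 24.8% against 25.3%, 27.3% and 33.9%. At 45 bases they were 37.5%, 20.2% and 19.2% against 15.7%, 12% and 21.5%. The high values at 45 bases in WT replicate 1 and at 39 bases in KO replicate 1 included their leading clonotypes, which held 44.6% and 36.5% of the UMIs of that length.

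Of 34 CDR3 lengths tested, edgeR called 0 (0%), with 2 at an unadjusted p under 0.05. DESeq2 called 1, 54 bases. The 3 with the smallest p were 54, 27 and 45 bases (edgeR adjusted p = 0.260, 0.260 and 0.763). CDR3s of 54 bases took 0.0444%, 0.0545% and 0.186% in WT and 0.00925%, 0.0186% and 0.00272% in KO, and those of 27 bases took 0.0799%, 0.587% and 0.0731% against 0.0247%, 0.0507% and 0.0317%. Both lengths were rare and did not overlap between the genotypes, as 3 of the 34 lengths did not. The SD of the CDR3 length was 4.20 ± 0.508 bases in WT and 3.83 ± 0.467 in KO (exact permutation p = 0.5).

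The composition of the CDR3 was compared over its central residues, leaving out 4 residues at each end that come mostly from the germline. Glycine, which D segments encode, was the most frequent residue, at 26.0%, 20.5% and 22.3% of central residues in WT and 15.7%, 18.7% and 22.4% in KO. Of the 20 residues, edgeR called 0 (0%), with 0 at an unadjusted p under 0.05, and DESeq2 also called 0. The 3 with the smallest p were methionine, glycine and proline (edgeR adjusted p = 0.834 each). Methionine was rare, at 0.0540% to 0.256% in WT and 0.154% to 0.800% in KO, and proline lay at 1.60% to 3.75% in WT and 2.62% to 5.15% in KO. Tryptophan (1.60 ± 0.173% in WT and 2.30 ± 0.343% in KO) and aspartate (7.89 ± 0.725% and 8.83 ± 0.0850%) were the 2 residues whose groups did not overlap, named after their values were seen, and neither passed the test (edgeR adjusted p = 0.834 for both).

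Mean hydropathy of the central residues on the Kyte-Doolittle scale, where negative values are hydrophilic, was −1.15 ± 0.133 in WT and −1.20 ± 0.0998 in KO (exact permutation p = 0.7). The mean net charge per CDR3 centre was −0.272, −0.399 and −0.419 in WT and −0.407, −0.423 and −0.554 in KO. WT replicate 1 was the least and KO replicate 3 the most negative, and the difference of −0.098 (SE 0.065) was not beyond the spread (exact permutation p = 0.2). Counted by clonotype the sign turned to 0.036. The number of nucleotide CDR3s per amino acid CDR3, a measure of convergent recombination, was 1.009 ± 0.00310 in WT and 1.008 ± 0.00353 in KO (exact permutation p = 0.8).

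Finally, amino acid CDR3s shared between spleens were counted, since the same amino acid sequence can arise in unrelated cells. Of 65561 in-frame amino acid CDR3s in the full tables, 63966 were found in 1 spleen, 1338 in 2, 214 in 3, 36 in 4, 6 in 5 and 1 in all 6. At 11271 UMIs, pairs of spleens shared 7.16 to 28.1 sequences, which was 0.883% to 2.22% of the smaller of the 2 lists. The 6 pairs of the same genotype shared 18.6 on average and the 9 pairs of different genotype 14.5, a difference of 4.13 (exact permutation p = 0.1, the smallest possible). The difference was 0.533 at 2488 UMIs, 1.56 without clonotypes of 1 UMI (exact permutation p = 0.3 for both) and 2.57 without WT replicate 1 (exact permutation p = 0.5).

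This difference was lost when the 596 clonotypes described above, those at least 100-fold more abundant elsewhere, were removed. The averages were then 13.4 and 13.6 (difference −0.218, exact permutation p = 1). Of the 6 pairs within a genotype, 5 lost 4.98 to 7.06 shared sequences, with KO replicates 2 and 3 going from 18.4 to 11.4 and WT replicates 3 and 4 from 28.1 to 21.6, and WT replicates 1 and 3 lost 0.9. Among pairs of different genotype the largest loss was that of WT replicate 4 with KO replicate 2, from 21.3 to 19.2. The removal took out sequences because another mouse held them, and for 511 of the 596 that mouse had the same genotype. A larger loss within genotypes thus followed largely from the choice of sequences. The source of the excess was not tested.

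**Figure D5:**
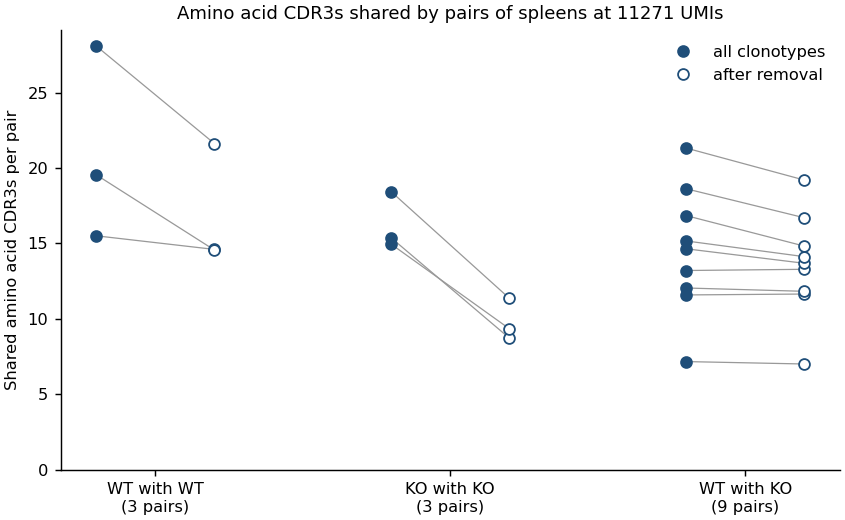
Number of amino acid CDR3s shared by each pair of spleens at 11271 UMIs, before (filled) and after (open) removal of the clonotypes that were at least 100-fold more abundant in a different mouse, for pairs within WT, within KO and between genotypes; lines join the same pair. Pairs within a genotype have 14.9 to 28.1 before and 8.72 to 21.6 after removal, whereas pairs between genotypes have 7.16 to 21.3 and 7 to 19.2.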

How the data were processed

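The authors isolated donor CD4+ T cells, made TCR beta cDNA by 5′ RACE with UMIs, sequenced on a MiSeq, collapsed UMIs (MIGEC) and ran MiXCR with default parameters; versions, V and J reference and genome build are not given in the sources used here. The deposited clone counts are whole-number counts per clonotype and were taken as UMIs, and the deposited clone fraction is that count over the library total and only checked the totals. The deposited tables are not downsampled, and errors that survived UMI collapsing could not be redone.

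Counts were summed per nucleotide CDR3 (Python 3.11.15, numpy 2.4.6, scipy 1.17.1). Measures were averaged over 50 seeded draws of 11271 UMIs and compared by two-sided exact permutation over 20 assignments (smallest p 0.1), adjusted by Benjamini-Hochberg over 17 measures. Segments, pairs, residues and lengths of 10 UMIs or more in 3 libraries or more were tested in the full tables with edgeR 4.0.16 (quasi-likelihood, library totals as sizes), and DESeq2 1.42.0 was an alternative. Other alternatives were TMM scaling, no filter, clonotypes counted once, no downsampling, 2488 UMIs, removal of 1-UMI, unusual-end, error-like and other-mouse clonotypes, library kind, a replicate block and leaving out each mouse. On simulated counts the test recovered 50% of 4-fold and 97.5% of 16-fold changes among 25 V segments, 90% and 100% among 12 J segments and 0.208% and 8.96% among 241 V-J pairs, while calling 0.870% and 1.52% of unchanged V segments, 2.27% and 10.9% of unchanged J segments and 0% and 0.0691% of unchanged pairs. Named were all called features, the 3 smallest p per table, segments of at least 5%, and the 3 largest clonotypes per spleen. Members, lists and tests were chosen with earlier results of these data known. An unusual end is 9 last bases other than the most frequent for the J segment, and 10% of 1-UMI clonotypes parted the kinds. Floors are 3 counts of the total, 0.000608% to 0.0266%.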

Additional observations from a re-analysis of the deposited data

How the results depend on the processing

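TRBJ1-5 kept its call in all 13 alternatives, with log2 fold changes from −1.69 to −0.99. The number of V segments called fell from 2 to 1 without the filter, with clonotypes per segment, with library kind as a covariate and with DESeq2, and to 0 to 1 when a mouse was left out. V-J pairs called rose from 0 to 3 with clonotypes per pair, to 6 with DESeq2 and to 0 to 1 when a mouse was left out; the cause was not tested. CDR3 lengths called went from 0 to 1 without the filter and with DESeq2, and segments whose genotype effect differed between organs from 0 to 2 with clonotypes per segment. The share of clonotypes of 0.1% to 1% (0.090 points) reversed to −0.099 at the smallest of the 12 totals and to −0.74 as the mean within library kinds, and V bases (−0.058) reversed to 0.027 within kinds. Counting each clonotype once reversed the largest pair (0.062), the gap (0.020), the nonproductive share (0.85) and net charge (0.036). Removal of clonotypes of another mouse, mostly one of the same genotype, reversed the excess of sharing within genotypes (4.13) to −0.218. The excess fell to 0.533 at 2488 UMIs and 1.56 without clonotypes of 1 UMI.

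With WT and KO numbers 1 and 3 as a replicate block, which share only a number and come from different mice, 0 V segments were called, the 0.1% to 1% class reversed to −1.84, the TRBJ2 share to −1.295 and V bases to 0.022, and TRBJ1-5 stayed called (log2 fold change −1.56, edgeR adjusted p = 0.0197). Its exact test allows no p below 0.5.

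When single mice were left out, differences ranged from −5.81 to 9.98 points for clonotypes above 1%, 0.553 to 3.60 for their number, 2.57 to 5.68 for the excess of sharing, −3.34 to 4.39 for 0.1% to 1%, −7.43 to 1.42 for those below 0.1%, −28.7 to 8.45 for clonotypes holding 50% of UMIs, −18.4 to 15.3 for effective V-J pairs, −6.59 to 1.03 for the largest pair, −2.70 to 7.75 for TRBJ2, −0.705 to 0.058 for the gap, −0.209 to 0.023 for V bases, −1.53 to 0.094 for the nonproductive share, −0.115 to 0.018 for hydropathy and −0.00271 to 0.000774 for nucleotide per amino acid CDR3s. The TRBD2 difference stayed negative, from −9.59 to −5.11. At the 11271 UMIs of WT replicate 1, a pair at 0 may hold up to 0.0266%.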
